A study of Mus musculus with 8 samples.

Results

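Acyl-CoA thioesterases cut the thioester bond that joins a fatty acid to coenzyme A (CoA) and so turn an activated acyl-CoA back into a free acid and CoA. In brown adipose tissue (BAT), which burns fatty acids to make heat, they stand between fuel activation by acyl-CoA synthetases and fuel use in mitochondria and peroxisomes. The family has 2 structural types that do not share a fold: the α/β-hydrolase enzymes, whose genes lie side by side in the mouse, and the hotdog-fold enzymes, whose genes are scattered. Several of the genes are known targets of PPARα, a nuclear receptor that is activated by fatty acids, and Acot11 was named brown-fat-inducible thioesterase for its response to cold.

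The members were the genes of the deposited table with the symbols Acot1, Acot2, Acot3, Acot4, Acot6, Acot7, Acot8, Acot11, Acot12 and Acot13, which are 10 of the 49452 genes listed. They were chosen by family around Acot1, which had itself been selected on its measured FPKM, low under high-fat diet, in these same libraries. Diet values of the members are therefore a description. Their fitted sizes, with SE or interval, show the spread between libraries, and no p-value or call is given for a member in that contrast. The symbols Acot5, Acot9 and Acot10 complete the series of names and are given for comparison.

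RNA-Seq was available for BAT of male C57BL/6 mice in 4 groups of 2 libraries. A first pair of groups, 10 to 12 weeks old, was housed at 22 °C (replicates 4 and 7) or exposed to 4 °C for 24 h (replicates 2 and 11). By the study's methods the cold time was 20 h followed by 4 h of fasting, and they do not make plain whether fasting also applied to the group at 22 °C. The second pair, 32 weeks old, had been fed for 28 weeks a control diet with 11 kJ% of its energy as fat (CD, replicates 6 and 8; normal chow by the labels, so the food of this group is not settled) or a high-fat diet with 54 kJ% (HFD, replicates 2 and 6). No transgene or deletion entered these groups, and no label says that mice were pooled. No label says either that the libraries of a group came from separate mice, and p-values measure only the spread between these samples. All levels below are FPKM, that is, fragments per kilobase of a transcript scaled to the depth of the library, so they may be compared between genes.

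All 12 brown adipocyte markers were above 0 in every library. At 22 °C they summed to 7626 and 8106 FPKM against 18634 and 16015 in the cold, where 9 were higher and 2 lower without overlap. They summed to 16285 and 9075 FPKM in CD-fed against 9775 and 14116 in HFD-fed mice, where 3 were higher and 2 lower without overlap. Every group holds 1 library in which the satellite-repeat gene Gm10800 exceeded 100 FPKM. These are replicate 4 at 22 °C, replicate 11 at 4 °C, replicate 8 of CD and replicate 2 of HFD, called satellite-high here, and the others are satellite-low. Replicate 11 at 4 °C stood between the types, with Gm10800 at 447 FPKM where the other satellite-high libraries had 6460 or more, and with 26285 genes above 0 where those had at least 31741 and the satellite-low libraries at most 24613. Skeletal muscle markers summed to 117 and 569 FPKM at 22 °C against 1981 and 4561 in the cold, and to 576 and 1525 in CD-fed against 15.5 and 185 in HFD-fed mice, and 11 of 11 were higher in the cold and 10 of 11 lower under HFD without overlap. Macrophage markers summed to 59.4 and 152 FPKM under CD and 332 and 361 FPKM under HFD, where 10 of 10 were higher without overlap. White adipocyte markers summed to 160 and 91.4 FPKM at 22 °C against 307 and 161 in the cold, where 4 markers were higher and 3, among them Lep and Nnat, lower without overlap, and to 28.3 and 18.3 in CD-fed against 224 and 229 in HFD-fed mice. Of these 8 markers, 7 were higher under HFD without overlap, and 4 of them (Lep, Nnat, Npr3 and Mest) rose past threshold in limma. Hepatocyte markers summed to 7.35 and 16.5 FPKM in CD-fed against 1.63 and 1.8 in HFD-fed mice, and 4 of the 5 tested were lower under HFD without overlap. Most of each CD sum was Cyp2e1, at 5.15 and 14.7 FPKM against 1.05 and 0.8 under HFD. The sums were 182 and 52.6 FPKM at 22 °C and 150 and 138 in the cold, which overlap. Of these, Cyp2e1 was 177 and 51.9 FPKM at 22 °C and 149 and 138 in the cold. Of all genes tested, 37.9% were higher and 20.6% lower in the cold without overlap, against 39.9% and 5.8% under HFD. Marker counts near these shares say nothing of a cell type. In bulk tissue, fewer cells of a type and less RNA per cell cannot be told apart.

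The α/β-hydrolase genes lie in a row on the plus strand of chromosome 12 (GRCm38), in the order Acot2 (ENSMUSG00000021226, chr12:83987861-83993873), Acot1 (ENSMUSG00000072949, chr12:84009502-84017670), Acot4 (ENSMUSG00000052392, chr12:84038379-84044723), Acot3 (ENSMUSG00000021228, chr12:84052144-84059565), Acot5 and Acot6 (ENSMUSG00000043487, chr12:84100654-84111349). Acot1 is cytosolic, Acot2 is its mitochondrial counterpart, and Acot3, Acot4 and Acot6 are peroxisomal. Because these genes resemble each other, how far a fragment can be placed matters for every value below. The coding sequences of Acot1 and Acot2 are identical at 95.2% of 1239 aligned bases, whereas Acot1 and Acot4 are identical at 77.3%. Of all 100-base windows of the Acot1 transcript, 21.9% occur exactly in another gene on either strand, and 28.9% occur in another Acot gene with up to 2 mismatches. The corresponding shares were 17.1% and 27.1% for Acot2, 16.6% and 7.17% for Acot3, 8.85% and 4.95% for Acot4 and 1.7% and 6.3% for Acot6. FPKM of Acot1, Acot2 and their neighbours are in this respect uncertain, since fragments from shared stretches could be split between genes.

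The longest coding stretch that Acot1 and Acot2 share without any difference, 273 bases (coding positions 887 to 1159 of Acot1 and 1010 to 1282 of Acot2), is shown because fragments lying wholly inside it cannot be assigned to either gene.
Acot1 and Acot2 shared: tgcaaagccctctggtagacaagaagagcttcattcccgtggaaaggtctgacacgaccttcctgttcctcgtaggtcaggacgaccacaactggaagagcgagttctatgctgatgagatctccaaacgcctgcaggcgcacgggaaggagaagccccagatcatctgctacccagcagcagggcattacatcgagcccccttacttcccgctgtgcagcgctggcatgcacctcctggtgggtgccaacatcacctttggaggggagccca

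Just before it lies the 60-base stretch with the most mismatches between the coding sequences, 13 when they are set side by side without gaps, shown because fragments that cover it can be told apart. Capitals mark the bases that differ between the genes. The stretch runs from coding position 823 to 882 in Acot1 and from 946 to 1005 in Acot2.
Acot1: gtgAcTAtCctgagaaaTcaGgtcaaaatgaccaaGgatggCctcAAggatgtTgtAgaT
Acot2: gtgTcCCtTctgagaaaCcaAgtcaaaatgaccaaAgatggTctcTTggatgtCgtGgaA

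Promoter windows, the 250 bases before the start of transcription from RefSeq (GRCm38.p6), were found for 8 of 10 members. Those of Acot1 (chr12:84009252-84009501, plus strand) and Acot2 (chr12:83987611-83987860, plus strand) are shown because both genes were higher in the cold libraries while their levels parted under HFD. They are printed in lower case throughout, as neither holds a searched motif.
Acot1 promoter: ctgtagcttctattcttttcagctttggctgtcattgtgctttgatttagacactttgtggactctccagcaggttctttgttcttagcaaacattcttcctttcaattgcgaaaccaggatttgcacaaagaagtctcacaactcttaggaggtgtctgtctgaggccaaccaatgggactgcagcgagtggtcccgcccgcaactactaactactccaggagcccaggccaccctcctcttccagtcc
Acot2 promoter: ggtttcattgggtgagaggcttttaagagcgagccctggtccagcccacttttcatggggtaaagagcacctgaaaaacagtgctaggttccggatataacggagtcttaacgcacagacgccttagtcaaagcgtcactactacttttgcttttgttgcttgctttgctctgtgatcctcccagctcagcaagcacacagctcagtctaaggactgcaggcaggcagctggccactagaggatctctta

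PPARα binds direct repeats of AGGTCA that are separated by a single base. The spelling AGGTCA, any base N, AGGTCA was searched on both strands and occurred in 0 of the 10 windows of members and in 0.0335% of all 32851 promoter windows. The single hexamer AGGTCA, which is part of the longer motif, occurred in 14% of all windows. Among members it was found on the minus strand in Acot4, with its first base at -13 from the start, and in Acot12, with its first base at -110.

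Levels of the 10 genes spanned a wide range. Acot13 had the highest mean over the 8 libraries (52.0 FPKM), followed by Acot11 (43.3) and Acot2 (36.2), and their ranges overlapped. Acot13 was above Acot11 in 5 of 8 libraries, but below it in both cold libraries, and Acot11 was above Acot2 in 4 of 8. Together Acot13, Acot11 and Acot2 made up 77.7% to 88.6% of the summed FPKM of the family. Acot8 (8.81), Acot1 (7.34) and Acot7 (5.25) came next, and Acot8 was above Acot1 in 6 of 8 libraries and Acot1 above Acot7 in 4 of 8. Acot4 (2.64) and Acot6 (1.32) were lower, with Acot4 above Acot6 in 8 of 8 libraries. Acot12 (0.443) and Acot3 (0.253) were the least abundant, with overlapping ranges.

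**Figure D1:**
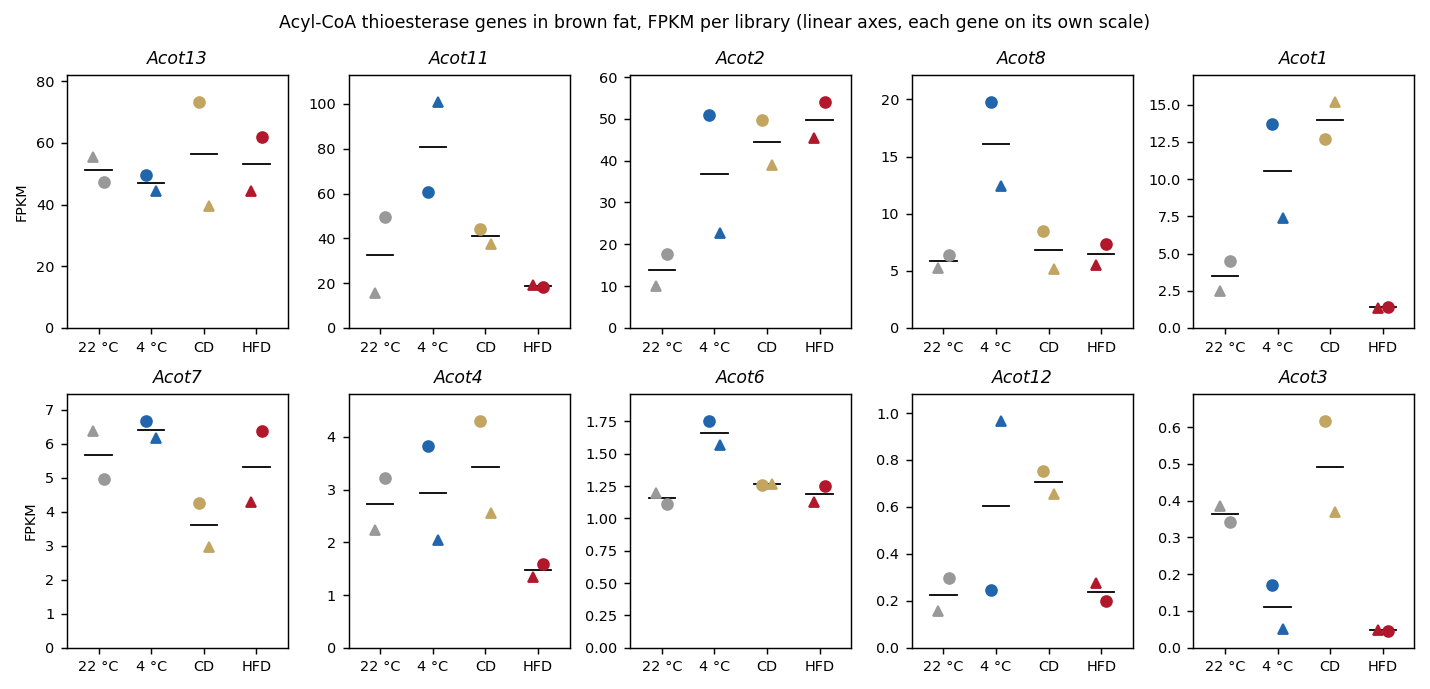
FPKM of each thioesterase gene in each library, on linear axes that start at 0, with genes in order of mean level. Triangles are satellite-high and circles satellite-low libraries, and the black line is the mean of the 2 libraries of a group; Acot1 lies at 1.35 and 1.41 FPKM under HFD and between 2.47 and 15.2 in the other libraries.

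The first comparison asked which genes of the family differ in BAT after 24 h at 4 °C. Acot1, Acot2, Acot6, Acot8 and Acot11 were higher in both cold libraries than in both libraries at 22 °C, Acot3 was lower in both, and Acot4, Acot7, Acot12 and Acot13 overlapped. In limma, 0 of 10 members were past threshold (adjusted p under 0.05 over all genes and a log2 fold change of at least 1), and 5 of 10 had an unadjusted p under 0.05. Of all 17477 genes tested, 1.44% were past threshold and 24.5% had an unadjusted p under 0.05. The share of genes higher without overlap was 37.9%, so the 5 of 10 members are near the background, and 20.6% were lower without overlap. With library type as a covariate, 3 of 10 members were past threshold (Acot1, Acot2 and Acot8, all higher), against 4.92% of all genes. The median log2 fold change was 0.33 over the members and 0.07 over all genes tested. Over the mRNAs that averaged 1 FPKM or more it was 0.22, which lies nearer the median of the members.

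Among the chromosome 12 genes, Acot1 was 2.47 and 4.52 FPKM at 22 °C and 13.7 and 7.42 FPKM at 4 °C. Each cold library exceeded each library at 22 °C, and the group means differed 3.02-fold. The log2 fold change of log2(FPKM + 1) was 1.35 (SE 0.36), with a limma adjusted p of 0.107 and, with library type as a covariate, of 0.0269. It was 1.28 between the satellite-high and 1.41 between the satellite-low libraries. Acot2 had 10.1 and 17.7 FPKM at 22 °C against 50.8 and 22.8 FPKM at 4 °C. These groups did not overlap either, and the log2 fold change was 1.29 (SE 0.45, limma adjusted p 0.17, or 0.0298 with library type). Without 4 °C replicate 2 it was 0.73. Acot2 was 3.08 to 4.08 times Acot1 in these 4 libraries.

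The peroxisomal genes of the row differed among themselves in the cold. Acot3 was 0.385 and 0.341 FPKM at 22 °C and 0.171 and 0.0507 FPKM at 4 °C, about 156, 134, 50 and 17.4 fragments by the step between low FPKM values. The cold libraries were the lower ones, with means 3.28-fold apart and a log2 fold change of -0.30 (SE 0.07, limma adjusted p 0.0958). That change was -1.20 with a pseudocount of 0.1 in place of 1, since adding 1 compresses low levels. Acot4, at 2.23 and 3.21 FPKM against 3.83 and 2.05, overlapped between the groups, and its log2 fold change of 0.06 (95% interval -0.66 to 0.78) turned negative under each of 3 other scalings. Acot6, at 1.20 and 1.11 FPKM against 1.75 and 1.57, was higher in both cold libraries, with a log2 fold change of 0.30 (SE 0.14, limma adjusted p 0.26), which shrank to 0.04 by median centring and 0.05 by autosomal rescaling. The antisense transcript 4732463B04Rik, which overlaps Acot3 and Acot4 on the opposite strand, was 1.42 and 1.81 FPKM against 1.87 and 0.981. The annotated protein-coding gene Gm49366 overlaps Acot3 and Acot4 on the same strand and shares exact windows with Acot3. The overlaps are 6470 and 9667 bases of gene span in GENCODE M21, where Acot4 spans more bases than its position given above. Gm49366 was not analysed here, and its part in the values of both genes was not tested.

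Acot5, a further peroxisomal enzyme of the row that is no member, was 0.0474 and 0.155 FPKM at 22 °C and 1.40 and 0.935 FPKM at 4 °C, about 7.99 and 25.4 against 170 and 134 fragments. Both cold libraries were far above the others, 11.5-fold on average. Its limma adjusted p was 0.0443, but the log2 fold change of 0.97 (SE 0.13) stayed under the fold set for a call. Of these neighbours, Acot5 was thus higher and Acot3 lower in both cold libraries. Of the Acot3 windows, 5.94% occur in Acot5 with up to 2 mismatches, and the part of such fragments in both values was not tested.

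**Figure D2:**
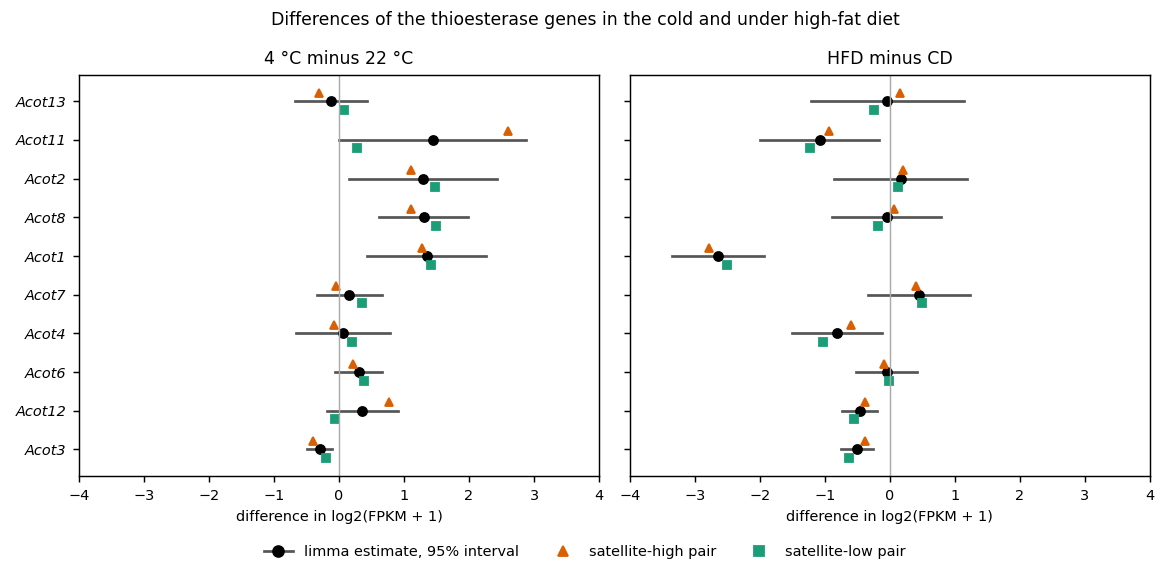
Difference in log2(FPKM + 1) of each thioesterase gene between 4 °C and 22 °C (left) and between HFD and CD (right). Black points and lines are limma estimates with 95% intervals, triangles the difference between the satellite-high libraries and squares between the satellite-low ones; in the cold the intervals of Acot1, Acot2, Acot8 and, barely, Acot11 lie above 0 and that of Acot3 below, and that of Acot1 runs from -3.35 to -1.94 under HFD.

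The remaining members lie on other chromosomes and share no 100-base window with another Acot gene within 2 mismatches. Acot8 (ENSMUSG00000017307, chr2:164792768-164804882, minus strand) is a peroxisomal enzyme of broad substrate range with the hotdog fold. It was 5.27 and 6.41 FPKM at 22 °C and 19.8 and 12.4 FPKM at 4 °C. The groups were well apart, with means differing 2.77-fold and a log2 fold change of 1.30 (SE 0.27, limma adjusted p 0.071, or 0.0306 with library type). Without 4 °C replicate 2 the log2 fold change was 0.98. The sorting nexin gene Snx21 lies on the opposite strand and overlaps Acot8 by 1052 bases of gene span, and 13.8% of the Acot8 windows occur in it on either strand. Snx21 was 11 and 9.64 FPKM at 22 °C and 19.5 and 17.9 FPKM at 4 °C, so it too was higher in both cold libraries. The libraries were directional, but whether strand was used to obtain FPKM is not given in the sources used here, and the part of Snx21 in the Acot8 values was not tested.

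Acot11 (ENSMUSG00000034853, chr4:106744555-106804998, minus strand), the brown-fat-inducible enzyme with hotdog domains and a lipid-binding START domain, differed widely between the libraries of a group. At 22 °C its levels were 15.8 and 49.6 FPKM, and at 4 °C they were 60.6 and 101 FPKM. The cold libraries were both higher, but the gap between 49.6 and 60.6 was smaller than the spread within either group. The log2 fold change of 1.44 (SE 0.57) had a limma adjusted p of 0.203, and of 0.15 with library type. It was 2.60 between the satellite-high and 0.28 between the satellite-low libraries, and 0.65 without 22 °C replicate 4 but 2.23 without 22 °C replicate 7. Fam151a, which overlaps Acot11 on the opposite strand and holds 15.6% of its windows, was at most 0.0539 FPKM in any library.

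Acot7, Acot12 and Acot13 overlapped between 22 °C and 4 °C. Acot7 (ENSMUSG00000028937, chr4:152178134-152271855, plus strand), a cytosolic enzyme best known from brain, was 6.38 and 4.95 FPKM at 22 °C and 6.65 and 6.17 at 4 °C. Its log2 fold change of 0.16 (95% interval -0.34 to 0.66) turned negative under the same 3 scalings as that of Acot4. When each library was left out, it ran from 0.00 (without 22 °C replicate 7) to 0.31 (without 22 °C replicate 4). Acot13 (ENSMUSG00000006717, chr13:24817948-24831517, minus strand), also called Them2, is a small enzyme associated with mitochondria and ran only from 39.6 to 73.4 FPKM over all 8 libraries. In the cold experiment it was at 55.3 and 47.4 FPKM against 49.6 and 44.4. The log2 fold change was -0.12 (95% interval -0.68 to 0.43), but -0.66 by quantile normalization and -0.55 by autosomal rescaling, with intervals below 0. It ran from -0.23 (without 22 °C replicate 7) to -0.01 (without 22 °C replicate 4) when each library was left out. Acot12 (ENSMUSG00000021620, chr13:91741512-91786148, plus strand), a cytosolic acetyl-CoA hydrolase best known from liver, was low, at 0.155 and 0.296 FPKM against 0.246 and 0.964. The level in 4 °C replicate 11 was the highest of all 8 libraries, while 4 °C replicate 2 lay within the 22 °C range, and the log2 fold change was 0.35 (95% interval -0.19 to 0.90), or 0.03 without 4 °C replicate 11, 0.68 without 4 °C replicate 2 and 0.93 with a pseudocount of 0.1.

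Muscle markers were higher in the cold libraries, as given above. In a fit of all 8 libraries with a muscle marker score, the cold log2 fold changes were 1.40 for Acot1, 1.62 for Acot2, 1.67 for Acot8 and 2.36 for Acot11, and none was past threshold, with limma adjusted p of 0.307, 0.328, 0.227 and 0.23. No gene of 17477 was past threshold in the cold in that fit, and 2647 had an unadjusted p under 0.05.

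The second comparison was between HFD and CD, the contrast in which Acot1 was picked, and it is a description only. The label text of CD replicate 6 starts unlike that of CD replicate 8 and both HFD libraries, and what this stands for is not stated. Acot1, Acot3, Acot4, Acot6, Acot11 and Acot12 were lower in both HFD libraries than in both CD libraries, Acot7 was higher in both, and Acot2, Acot8 and Acot13 overlapped. Of all 17543 genes, 5.8% were lower and 39.9% higher without overlap. Because Acot1 was selected on this contrast, nothing is read from the count. The median log2 fold change was -0.26 over the members, with the selected Acot1 among them, and 0.18 over all genes. Nothing is read from this median either.

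Acot1 was 12.7 and 15.2 FPKM under CD and 1.35 and 1.41 FPKM under HFD, about 3721 and 3510 against 335 and 314 fragments. The HFD libraries were close together and the lowest of all 8, and the group means were 10.1-fold apart. The log2 fold change was -2.65 (SE 0.30), with -2.78 between the satellite-high and -2.51 between the satellite-low libraries. It was -2.70 in the fit with the muscle marker score.

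Acot2 lies next to Acot1 and shares most of its coding sequence, and it was 49.7 and 39.0 FPKM under CD and 45.4 and 54.1 FPKM under HFD. These values interleaved, with a log2 fold change of 0.17 (95% interval -0.86 to 1.19). The ratio of Acot2 to Acot1 was 3.90 and 2.58 under CD and 33.6 and 38.4 under HFD. Acot1 made up 20.4% and 28% of the summed FPKM of both genes under CD and 2.89% and 2.54% under HFD, while in the cold experiment its share was 19.7% to 24.5%. The sum itself was 62.5 and 54.2 FPKM under CD and 46.7 and 55.5 FPKM under HFD and overlapped. The part that fragments from shared stretches take in the Acot1 and Acot2 values was not tested.

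**Figure D3:**
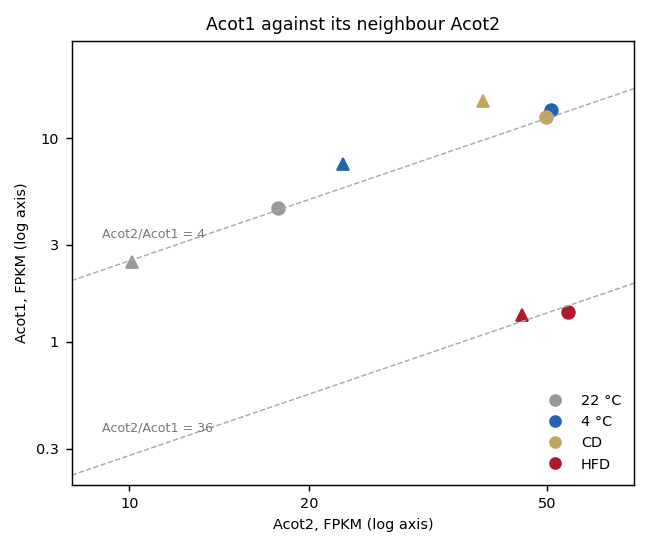
Acot1 against Acot2 in each library, in FPKM on log axes, with groups by colour and satellite-high libraries as triangles. Dashed lines mark ratios of 4 and 36; the 6 libraries other than HFD have ratios from 2.58 to 4.08, and those of HFD lie at 33.6 and 38.4.

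Of the peroxisomal genes of the row, Acot3 and Acot4 were lower in both HFD libraries by a wider margin than Acot6. Acot3 was 0.615 and 0.368 FPKM under CD and 0.0487 and 0.0452 FPKM under HFD, the latter about 16.1 and 13.4 fragments. Both HFD values lay below every other library, with means 10.5-fold apart and a log2 fold change of -0.51 (SE 0.10), or -1.98 with a pseudocount of 0.1. Acot4, an enzyme of dicarboxylic and succinyl-CoA, was 4.29 and 2.56 FPKM under CD and 1.35 and 1.58 FPKM under HFD. Its means were 2.34-fold apart, with a log2 fold change of -0.82 (SE 0.30), or -0.53 without CD replicate 6. The antisense transcript 4732463B04Rik was also lower in both HFD libraries, at 2.03 and 1.31 FPKM against 0.748 and 0.728, and its part in the Acot3 and Acot4 values was not tested. Acot6 was nearly level in FPKM as deposited, at 1.26 and 1.27 FPKM under CD and 1.13 and 1.25 FPKM under HFD, giving a log2 fold change of -0.05 (95% interval -0.52 to 0.42), or -0.33 by quantile normalization and -0.40 by median centring. Acot5 was 0.107 and 0.130 FPKM against 0.0478 and 0.0441.

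Among the members elsewhere in the genome, Acot11 was 44.2 and 37.6 FPKM under CD and 19.1 and 18.3 FPKM under HFD. The HFD libraries were alike and below both CD libraries, with means 2.19-fold apart and a log2 fold change of -1.08 (SE 0.39). That change was -0.94 between the satellite-high and -1.23 between the satellite-low libraries, and -2.06 in the fit with the muscle marker score. Acot12 was 0.754 and 0.655 FPKM under CD and 0.274 and 0.200 FPKM under HFD, 2.98-fold apart, with a log2 fold change of -0.46 (SE 0.11), or -1.26 with a pseudocount of 0.1. Acot7 was 4.26 and 2.96 FPKM under CD and 4.28 and 6.37 FPKM under HFD, so that the groups missed each other by the narrow gap between 4.26 and 4.28, with a log2 fold change of 0.45 (95% interval -0.33 to 1.23). It ranged from 0.10 by quantile normalization or median centring to 0.69 without HFD replicate 2.

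Acot8 and Acot13 interleaved between the diets. Acot8 was 8.46 and 5.20 FPKM under CD and 5.53 and 7.35 FPKM under HFD, for a log2 fold change of -0.05 (95% interval -0.89 to 0.79). Acot13 was 73.4 and 39.6 FPKM under CD and 44.4 and 62.1 FPKM under HFD, for a log2 fold change of -0.04 (95% interval -1.22 to 1.14). In both genes the satellite-low library of each diet was the higher one. Macrophage and white adipocyte markers were higher and hepatocyte markers lower under HFD, as given above, and their part in the diet values of the family was not tested.

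The summed level of the family, in FPKM as deposited, differed without overlap in the cold experiment but not between the diets. Of all genes tested, 37.9% were higher in the cold without overlap. Autosomal rescaling lowered the cold log2 fold change of each member, for Acot13 from -0.12 to -0.55, and sums were not taken under it. The 10 genes summed to 99.3 and 135 FPKM at 22 °C and to 207 and 199 FPKM at 4 °C. Under CD the sum was 200 and 144 FPKM and under HFD 123 and 153 FPKM, which overlap. Acot11 supplied 16% and 36.6% of the sum at 22 °C and 29.2% and 50.8% at 4 °C, which overlap, and 22.1% and 26% with CD against 15.6% and 12% with HFD, which do not. Acot2 supplied 24.9% and 27.1% of the sum in CD-fed and 36.9% and 35.4% in HFD-fed mice.

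**Figure D4:**
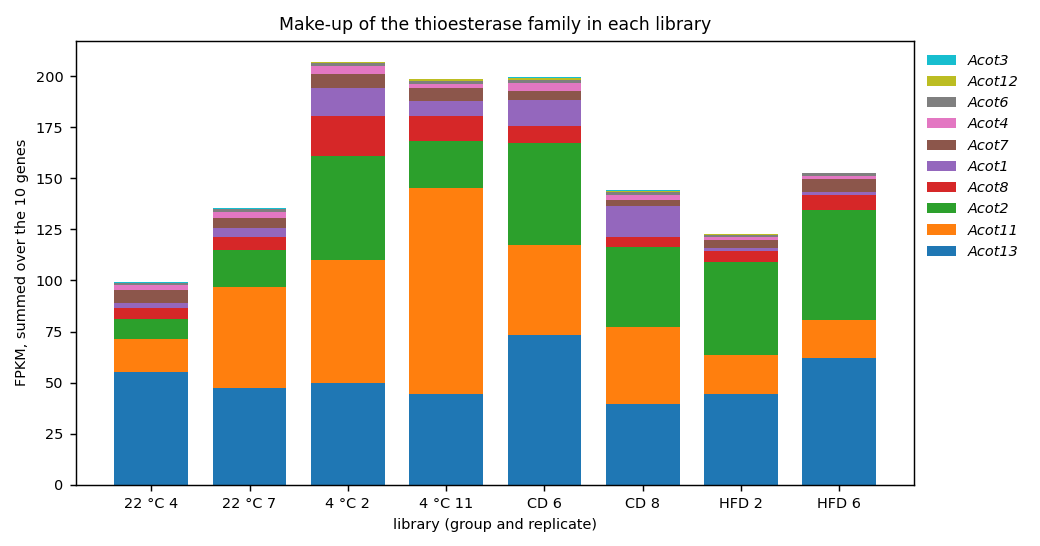
Summed FPKM of the 10 thioesterase genes in each library, stacked by gene, on a linear axis from 0. The sums run from 99.3 FPKM in 22 °C replicate 4 to 207 in 4 °C replicate 2, and Acot13, Acot11 and Acot2 form the bulk of every bar.

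Genes whose pattern was most like that of Acot1 and of Acot11 were sought among 10883 autosomal genes whose mean reached 1 FPKM, by Pearson r of log2(FPKM + 1) over the 8 libraries. The libraries share their groups and depth in every such comparison, and r is a description. For Acot1 these were Adprhl1 (r 0.970), Spata17 (0.918), Slc4a4 (0.908), Pfn2 (0.886) and Ppm1l (0.874). Slc4a4, a sodium bicarbonate cotransporter, ran from 24.3 to 57.4 FPKM and was 25.4 and 29.0 FPKM under HFD. For Acot11 they were Aspg (r 0.979), Acsl5 (0.971), Ccdc125 (0.947), Gpd2 (0.944) and Ccpg1 (0.936). Acsl5, which makes long-chain acyl-CoA, was 21.9 and 71.5 FPKM at 22 °C against 103 and 199 in the cold, and 86.8 and 54.5 under CD against 13.4 and 16.7 with HFD, and as with Acot11 replicate 4 was the lower library at 22 °C. Gpd2, the mitochondrial glycerol-3-phosphate dehydrogenase, ran from 60.1 to 180 FPKM.

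Other genes that make, cut, carry or sense acyl-CoA were counted from hand-written lists. The counts of unadjusted p under 0.05 below stand beside 24.5% of all genes in the cold and 14.4% under HFD, and those near these shares say nothing of a list. Of the 10 other thioesterases tested in the cold, 0 were past threshold in limma, 3 had an unadjusted p under 0.05 and 1 was past threshold with library type. The latter was the mitochondrial enzyme Them4, at 2.23 and 2.85 FPKM against 9.10 and 6.63, a log2 fold change of 1.32 (SE 0.22, limma adjusted p 0.0548, or 0.0284 with library type). Lypla1, an acyl-protein thioesterase, was 13.6 and 15.3 FPKM against 22.3 and 19.3, a log2 fold change of 0.49 (limma adjusted p 0.21). Under HFD 0 of 9 were past threshold in limma (0.0684% of all genes, or 4.25% with library type as a covariate), and 1 had an unadjusted p under 0.05 and was past threshold with library type, the fatty acid synthase Fasn, which ends its cycle with a built-in thioesterase. Fasn was 377 and 634 FPKM under CD and 56.0 and 35.3 FPKM under HFD, giving a log2 fold change of -3.43 (SE 0.57, limma adjusted p 0.12, or 0.00126 with library type). Lypla1 was 22.3 and 24.8 FPKM under CD and 21.2 and 20.6 FPKM under HFD, giving a log2 fold change of -0.16 (limma adjusted p 0.878).

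Acyl-CoA synthetases run the opposite reaction. Of 15 tested in the cold, 1 fell and 0 rose in limma, and 5 had an unadjusted p under 0.05. Acsm3, a mitochondrial medium-chain synthetase, fell from 41.1 and 37.9 FPKM to 5.83 and 7.63, a log2 fold change of -2.40 (SE 0.21, limma adjusted p 0.0215). Under HFD 0 of 15 were past threshold in limma, 5 had an unadjusted p under 0.05, and 4 were past threshold and lower with library type. Acsl5 had a log2 fold change of -2.13 (SE 0.44, limma adjusted p 0.151, or 0.00394 with library type). Slc27a2, a very long-chain synthetase and fatty acid transporter, was 89.3 and 81.5 FPKM under CD and 35.4 and 32.3 FPKM under HFD, giving a log2 fold change of -1.31 (limma adjusted p 0.245, or 0.0102 with library type).

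Free CoA, the other product of the reaction, comes from a short pathway that starts with pantothenate kinase. Of 16 genes of CoA synthesis and breakdown, 0 were past threshold in limma in either comparison. An unadjusted p under 0.05 was found for 7 in the cold and 0 under HFD, and 2 were past threshold and higher in the cold with library type. Pank1, the kinase, was 56.5 and 54.1 FPKM against 156 and 142 in the cold, a log2 fold change of 1.41 (SE 0.23, limma adjusted p 0.0517, or 0.0278 with library type). Nudt19, a peroxisomal CoA diphosphohydrolase, was 15.4 and 19.9 FPKM against 48.5 and 34.7, a log2 fold change of 1.18 (limma adjusted p 0.0779, or 0.0318). Under HFD, Dcakd was 3.61 and 3.23 FPKM against 5.18 and 5.07, a log2 fold change of 0.47 (limma adjusted p 0.512).

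Of 16 genes for acyl-CoA binding and carnitine transfer, 0 were past threshold in limma in either comparison. An unadjusted p under 0.05 was found for 3 in the cold and 2 under HFD, and 2 were past threshold and higher under HFD with library type. Cpt1a, the carnitine palmitoyltransferase typical of liver, was 3.26 and 2.66 FPKM at 22 °C and 10.5 and 4.35 at 4 °C, a log2 fold change of 0.99 (limma adjusted p 0.197). It was 4.41 FPKM in both CD libraries and 11.9 and 10.9 under HFD, giving a log2 fold change of 1.20 (SE 0.31, limma adjusted p 0.18, or 0.00819 with library type). Cpt1b, the form typical of muscle and BAT, was 206 and 230 FPKM against 446 and 402 in the cold, a log2 fold change of 0.96 (limma adjusted p 0.119). Abcd2, a peroxisomal acyl-CoA transporter, was 26.3 and 10.4 FPKM under CD and 39.6 and 57.8 FPKM under HFD, giving a log2 fold change of 1.47 (limma adjusted p 0.274, or 0.0109).

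Among 24 tested PPARα targets, 3 rose and 0 fell in the cold in limma, and 9 had an unadjusted p under 0.05. The list, written for enzymes and other proteins of fatty acid handling, holds no Acot gene. Ehhadh, a peroxisomal β-oxidation enzyme, rose from 19.8 and 16.2 FPKM to 149 and 113, a log2 fold change of 2.79 (SE 0.25, limma adjusted p 0.0215). Fabp3, a fatty acid-binding protein, rose from 131 and 159 FPKM to 613 and 664, a log2 fold change of 2.14 (SE 0.28, limma adjusted p 0.0442). Fgf21, a secreted metabolic hormone, rose from 0.0611 and 0.104 FPKM to 12.6 and 5.91, a log2 fold change of 3.16 (SE 0.34, limma adjusted p 0.0299). Under HFD 0 of 24 were past threshold in limma and 2 had an unadjusted p under 0.05, Ehhadh and Cyp4a10. Ehhadh was 71.2 and 108 FPKM under CD and 21.3 and 24.4 FPKM under HFD, giving a log2 fold change of -1.89 (SE 0.45, limma adjusted p 0.163, or 0.0073 with library type). Cidea, a lipid droplet protein, was 1116 and 760 FPKM under CD and 464 and 412 FPKM under HFD, giving a log2 fold change of -1.07 (limma adjusted p 0.513, or 0.0483). The median log2 fold change of the list was 0.38 in the cold and -0.13 under HFD, beside 0.07 and 0.18 over all genes. Over the mRNAs that averaged 1 FPKM or more, the medians were 0.22 in the cold and 0.30 under HFD.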

How the data were processed

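BAT RNA of male mice was sequenced by the authors as 8 rRNA-depleted, directional, paired-end libraries of 100-base reads. Per the labels and methods, reads were mapped to GRCm38, and the submitters' processing notes list FastQC 0.10.1, TopHat2 2.0.10, STAR, Cufflinks 2.2.1, DESeq2 and R 3.2.2. The deposited table holds FPKM made by the authors, 1 value per gene and library, with no pooling. The authors' DESeq2 test on counts could not be repeated on FPKM, so log2(FPKM + 1) was analysed in R 4.3.3 by limma 3.58.1 (lmFit and eBayes, trend on), using the 4 libraries of each comparison with no covariate. Genes needed 0.1 FPKM in 2 of 4 libraries. X, Y and mitochondrial genes were left out, since every X gene is listed at 0 in both 22 °C libraries and CD replicate 6. Two-sided p-values were adjusted over all genes tested by the Benjamini-Hochberg method. Past threshold means an adjusted p under 0.05 and an absolute log2 fold change no smaller than 1, and "rose" and "fell" are used only of such genes. SE and 95% intervals are limma's, and because 1 is added before the logarithm, changes of low genes are understated.

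The members, the gene lists and the library types were chosen with earlier results of these data known. All 10 members are named. From each list, genes past threshold are named, or otherwise the 2 of largest change with a mean of at least 1 FPKM and no overlap between groups. Fit and calls were tested on simulated data. Depth is not stated in the table. Low FPKM values of genes with 1 exon fell on multiples of the value of 1 fragment (97.5% to 98.5% whole within 0.1), which puts 1 fragment on a transcript of 2000 bases at 0.00438 to 0.00606 FPKM. Fragment numbers given are approximate, come from that step and each gene's longest transcript, and cover counting error only. Genes were matched by Ensembl identifier to GENCODE M21 (49109 of 49452), which supplied types, transcripts and overlaps. Gene positions are those of the deposited table. Alternatives were another pseudocount, filter and scaling, library type, all 8 libraries in 1 fit with and without a muscle marker score, and leaving out each library. Python 3.11.15, pandas 2.3.3, NumPy 2.4.6 and matplotlib 3.10.9 were used for summaries and figures.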

Additional observations from a re-analysis of the deposited data

How the results depend on the processing

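No paired analysis was possible because no label pairs libraries between groups. Replicate numbers, of which the groups compared share fewer than 2, are not said to mark pairs. Library type, which crosses the groups, entered as a covariate. A fit that leaves out 1 library has 1 group of a single library, which is assumed to vary like the other group, so its count is not on a par with that of the full fit. With 2 libraries per group, counts of calls depended on the setting. The directions of Acot1, Acot2, Acot3, Acot6, Acot8, Acot11 and Acot12 in the cold were kept in every alternative fitted. So were those of Acot3, Acot4, Acot6, Acot7, Acot11 and Acot12 under HFD. That of Acot1 under HFD was the ground for its choice, so nothing is read from its being kept. The sizes in the cold depended on scaling. By autosomal rescaling the log2 fold changes were 0.97 for Acot1, 0.87 for Acot2, 0.90 for Acot8 and 1.02 for Acot11. The limma interval then stayed above 0 for Acot1 and Acot8, but not for Acot2 (-0.13 to 1.87) or Acot11 (-0.59 to 2.62). By quantile normalization Acot2 was 0.85 (interval -0.02 to 1.71) and Acot11 was 0.99 (interval -0.70 to 2.68). In the cold, where 252 genes and 0 members were past threshold, the counts of genes were 474 with a pseudocount of 0.1, 529 with a filter of 1 FPKM, 491 with quantile normalization, 758 with median centring, 591 with values rescaled to the autosomal protein-coding sum, 920 with X, Y and mitochondrial genes kept, 859 with library type, 439 with all 8 libraries, 869 with all 8 and library type, and 0 with no filter (limma, 4691 at an unadjusted p under 0.05) or with the muscle score (limma, 2647). Leaving out 1 library gave 0 to 246, with 0 without either 4 °C replicate 2 (3739 unadjusted) or 4 °C replicate 11 (5726) and 122 without 22 °C replicate 7. Cold member counts were 1 after median centring (Acot8) and 3 with library type, alone or with all 8 libraries. Under HFD, where 12 genes were past threshold, the counts of genes were 24 with a filter of 1 FPKM, 45 after median centring, 745 with library type, 75 with all 8 libraries, 439 with all 8 and library type, 1 with the muscle score, and in limma 0 with no filter (2490 unadjusted), after quantile normalization (2127), after autosomal rescaling (2376) and with X, Y and mitochondrial genes kept (2533). Leaving out 1 library gave 122 to 751 (751 without CD replicate 6, 243 without CD replicate 8, 366 without HFD replicate 2 and 122 without HFD replicate 6). The label text of CD replicate 6 starts like that of the 22 °C and 4 °C libraries, whereas CD replicate 8 and both HFD libraries share another start. Without CD replicate 6 the remaining libraries of the diet comparison therefore also share that start. The causes were not tested.

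Median centring shifted the median log2 fold change of all genes, which was 0.07 in the cold and became -0.19, and 0.18 under HFD and became -0.18. The split of 213 higher and 39 lower genes in the cold became 313 and 178 by quantile normalization, 493 and 265 by median centring and 299 and 292 by autosomal rescaling, and the 9 and 3 under HFD became 23 and 22 after median centring. Values near 0 changed sign. Acot4 in the cold was -0.10 by quantile normalization, -0.20 by median centring, -0.27 by autosomal rescaling, and ran from -0.27 (without 4 °C replicate 2) to 0.39 when each library was left out, with -0.13 without 22 °C replicate 4. Acot7 in the cold was -0.10 after quantile normalization and after median centring and -0.22 after autosomal rescaling, and Acot13 was 0.31 with the muscle score. Under HFD, Acot2 was -0.19 after median centring and with the muscle score and ran from -0.00 (without CD replicate 8) to 0.34 when each library was left out. On leaving out each library, Acot8 ran from -0.36 to 0.25, positive without CD replicate 6 and, at 0.12, without HFD replicate 2, and Acot13 ran from -0.48 to 0.40, positive without the same libraries (0.20 for the latter).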

Other observations

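Acot9, a mitochondrial thioesterase on the X chromosome, was listed at 0 in both 22 °C libraries and in CD replicate 6, where every X gene is listed at 0, so that these zeros can be missing estimates. In the other libraries it was 21.5 and 20.4 FPKM at 4 °C, 14.8 FPKM in CD replicate 8 and 26.9 and 43.1 FPKM under HFD. At these levels it would stand among the more abundant genes of the family, and it entered no comparison. Its relative Acot10 was listed at 0 or at no more than 0.0144 FPKM, about 2.01 fragments, in every library.

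The control groups of both experiments differ in age and were not compared by a test. Whether they ate the same food is not settled. Side by side, Acot1 was 2.47 and 4.52 FPKM at 22 °C and 12.7 and 15.2 FPKM under CD, and Acot2 was 10.1 and 17.7 FPKM at 22 °C and 49.7 and 39.0 FPKM under CD. Acot6 was level between them, at 1.20 and 1.11 FPKM against 1.26 and 1.27 FPKM. Muscle markers summed to 569 and 117 FPKM at 22 °C and to 576 and 1525 FPKM under CD.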
